A study of Mus musculus with 3 samples.

Results

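Alopecia areata (AA) is an autoimmune hair loss in which T cells gather around growing hair follicles. Skin cells of AA mice that had received an antibody neutralizing the chemokine CXCL12 were compared with skin cells of AA mice that had not, by single-cell RNA sequencing (scRNA-seq). The 2 libraries are labelled AA+Ab and AA. Barcodes with at most 10% of their UMIs (unique molecular identifiers, each standing for 1 captured mRNA molecule) from mitochondrial genes and with at least 200 genes were kept as cells. This left 20265 cells of the 26847 kept in the whole series, 10433 from AA and 9832 from AA+Ab. The comparison was made over all of these cells and in a keratinocyte gate, which held cells with no *Ptprc* UMI and at least 10 UMIs of *Krt5* plus *Krt14*. The gate took 15485 of the 20265 cells.

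All mice were female C3H/HeN, 25 weeks old, and the dorsal skin of 7 to 8 mice was pooled into each library. The AA mice carry a transferred disease, started by injecting expanded lymph node cells of affected mice into the skin of recipients. The AA+Ab mice were AA model mice that also received the CXCL12-neutralizing antibody, called humanized in the title of the series. Its dose, route and timing are not given in the sources used here. The other library of the series, Neg, came from unaffected mice of the same strain, and its values are printed beside the others as background. Each group is 1 library, so there was no replicate and no test between groups was made. All intervals are 95% intervals for counting error that leave out the spread between mice. Those of UMI counts also leave out the uneven spread of UMIs over cells.

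CXCL12 is a chemokine made mainly by stromal cells, and it draws cells that carry the receptor CXCR4. ACKR3 is a second receptor that removes CXCL12 from the tissue. In AA, T cells that make interferon gamma act on follicle keratinocytes, which answer through JAK kinases with chemokines such as CXCL9, with GTPases of the GBP and IRG families, and with more antigen presentation. Type I interferons act on a partly shared set of genes.

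Many interferon-inducible genes lie behind short promoter motifs, and the promoters of 5 members that hold such motifs are shown as examples. *Iigp1*, the most abundant GTPase below, is not among the 5. The sequences are RefSeq windows on GRCm38.p6, from 250 bases before to 50 bases after the start site, written 5′ to 3′ along the gene. Capitals mark an interferon-stimulated response element, searched as GAAANNGAAA, or a gamma-activated site, searched as TTCNNNGAA, on both strands. The windows lie at chr11:58199306-58199605 (plus strand, *Igtp*), chr11:58214727-58215026 (plus strand, *Irgm2*), chr11:48992197-48992496 (minus strand, *Tgtp1*), chr19:34640639-34640938 (plus strand, *Ifit1*) and chr4:156200769-156201068 (minus strand, *Isg15*).
Igtp: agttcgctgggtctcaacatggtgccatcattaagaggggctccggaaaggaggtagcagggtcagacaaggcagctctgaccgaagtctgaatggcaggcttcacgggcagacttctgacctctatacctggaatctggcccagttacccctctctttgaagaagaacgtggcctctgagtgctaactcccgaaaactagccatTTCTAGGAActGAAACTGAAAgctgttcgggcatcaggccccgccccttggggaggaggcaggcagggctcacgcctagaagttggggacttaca
Irgm2: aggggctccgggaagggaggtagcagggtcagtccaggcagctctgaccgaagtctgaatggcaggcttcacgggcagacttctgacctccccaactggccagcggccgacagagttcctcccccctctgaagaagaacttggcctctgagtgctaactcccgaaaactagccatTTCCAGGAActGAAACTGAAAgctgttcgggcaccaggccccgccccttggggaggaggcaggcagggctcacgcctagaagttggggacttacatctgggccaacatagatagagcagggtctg
Tgtp1: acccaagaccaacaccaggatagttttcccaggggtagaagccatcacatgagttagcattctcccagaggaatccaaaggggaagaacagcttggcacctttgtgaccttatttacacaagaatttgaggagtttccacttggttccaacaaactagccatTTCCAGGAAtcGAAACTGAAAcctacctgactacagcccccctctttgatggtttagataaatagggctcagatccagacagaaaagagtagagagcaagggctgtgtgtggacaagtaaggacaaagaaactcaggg
Ifit1: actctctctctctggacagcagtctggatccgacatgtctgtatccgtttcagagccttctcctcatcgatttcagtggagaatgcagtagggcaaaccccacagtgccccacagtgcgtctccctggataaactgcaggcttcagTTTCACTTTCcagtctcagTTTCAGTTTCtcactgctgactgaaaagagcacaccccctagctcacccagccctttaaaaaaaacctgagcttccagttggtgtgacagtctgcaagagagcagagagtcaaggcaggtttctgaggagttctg
Isg15: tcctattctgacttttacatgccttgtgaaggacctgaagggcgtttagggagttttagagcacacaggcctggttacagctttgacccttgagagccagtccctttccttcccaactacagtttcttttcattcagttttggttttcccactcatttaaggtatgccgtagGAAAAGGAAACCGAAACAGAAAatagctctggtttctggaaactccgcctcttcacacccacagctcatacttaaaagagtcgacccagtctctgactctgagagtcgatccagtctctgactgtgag
In *Igtp*, *Irgm2* and *Tgtp1*, 3 GTPases of the IRG family, the gamma-activated site stands directly upstream of the response element. *Ifit1* and *Isg15*, a translation inhibitor and a ubiquitin-like modifier of the type I response, held 2 and 3 response elements and no gamma-activated site, and the 3 matches in *Isg15* overlap each other. Of the 16 GTPases on the list used here, 10 had a window, and 9 of these 10 held a response element and 6 a gamma-activated site. Of the 25 genes of the type I interferon list, 16 had a window, with a response element in 9 and a gamma-activated site in 3. The windows of *Ifi44* and *Cxcl9*, which were also lower in AA+Ab below, held neither motif. Of all 27025 genes with a window of 300 bases, 3.99% held the response element and 9.55% the gamma-activated site. A match describes letters in a window and says nothing of binding in these cells.

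The AA and AA+Ab libraries were close in depth. The kept cells held 135609481 UMIs in AA and 139663314 in AA+Ab, with medians of 11177 and 11371 UMIs and of 3107 and 3143 genes per cell. In Neg the median was 13694.5 UMIs. Mitochondrial genes took 2.53% of UMIs in AA and 2.06% in AA+Ab, and ribosomal protein genes 21.8% and 24.5%. AA and AA+Ab shared 28 barcodes, of which 23 were kept in both. CPM below is the sum of a gene's UMIs over the cells named, per 1000000 UMIs of those cells. A ratio is the CPM of AA+Ab over that of AA, given on the log2 scale, and genes with at least 50 UMIs in both libraries together were compared.

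In the plot of gate shares, some gates held near equal shares in AA and AA+Ab, and the intervals of others did not overlap. The keratinocyte gate held 78.4% of cells in AA (interval 77.6 to 79.2), 74.3% in AA+Ab (73.5 to 75.2) and 77.2% in Neg. *Ptprc*-positive cells, which are leukocytes, made up 6.75% in AA (6.27 to 7.25) and 7.25% in AA+Ab (6.75 to 7.78), and the intervals overlap. Hair-lineage cells had no *Ptprc* UMI and at least 10 UMIs of inner root sheath and hair shaft genes. They made up 11.9% in AA (11.3 to 12.5), 16.3% in AA+Ab (15.5 to 17.0) and 19.8% in Neg (18.9 to 20.8). The 3 intervals do not overlap, and AA+Ab stood between the other libraries.

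**Figure D1:**
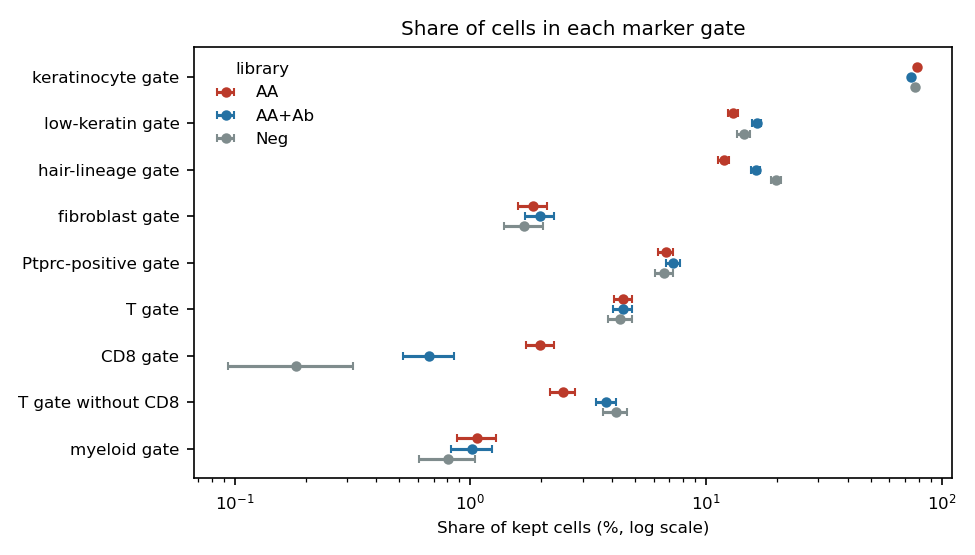
Share of kept cells (%, log axis) in each marker gate in the AA, AA+Ab and Neg libraries, with exact binomial 95% intervals that cover counting error only. Gates overlap: the T gate lies within the Ptprc-positive gate, and the hair-lineage gate crosses the keratinocyte and low-keratin gates. The CD8 gate holds 1.97% in AA and 0.671% in AA+Ab, and the whole T gate 4.45% and 4.44%.

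T cells, taken as *Ptprc*-positive cells with at least 2 UMIs of T cell receptor and CD3 genes, made up 4.45% of cells in AA, 4.44% in AA+Ab and 4.31% in Neg. Cells of this gate with a *Cd8a* or *Cd8b1* UMI were 206 in AA, 66 in AA+Ab and 12 in Neg. They made up 44.4% of the T gate in AA (39.8 to 49.0), 15.1% in AA+Ab (11.9 to 18.8) and 4.23% in Neg (2.20 to 7.26). The median depth of these cells was similar, at 4555.5 UMIs in AA and 4740 in AA+Ab. The T cells without a CD8 UMI took the opposite course, with 2.47% of all cells in AA, 3.77% in AA+Ab and 4.13% in Neg. As a measure of free RNA, 0.306% of keratinocyte-gate cells had a CD8 UMI in AA, 0.150% in AA+Ab and 0.118% in Neg, at median depths of 11732, 11923 and 14325.5 UMIs. With each T gate cell thinned to 2000 UMIs, which left out 49, 24 and 11 cells as too shallow, the shares with a CD8 UMI were 34.9% in AA (30.4 to 39.7), 11.6% in AA+Ab (8.69 to 15.1) and 2.93% in Neg (1.27 to 5.69). The share of T gate cells with a CD8 UMI was lower in AA+Ab than in AA by both counts, at a near equal share of T cells.

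Over all cells 17355 genes were compared. Of these, 287 (1.65%) were at least 2-fold higher in AA+Ab and 561 (3.23%) at least 2-fold lower, around a median log2 ratio of 0.01. In the keratinocyte gate 167 of 16032 genes (1.04%) were at least 2-fold higher and 493 (3.08%) at least 2-fold lower, around a median of 0.00. In such sums, fewer cells of a kind and less RNA per cell cannot be told apart.

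The interferon-inducible GTPases, which attack the vacuoles of intracellular pathogens and are induced by interferon gamma, were lower in AA+Ab as a family. In the keratinocyte gate all 15 members compared were at least 2-fold lower, against 3.08% of all genes. The remaining member, *Gvin1*, had 1 UMI in AA and none in AA+Ab. Their median log2 ratio was -2.15, with a range from -6.32 for *Tgtp1* to -1.37 for *Gbp7*. Their summed level was 123 CPM in AA (121 to 125), 25.6 CPM in AA+Ab (24.7 to 26.6) and 13.5 CPM in Neg (12.8 to 14.3). Over all cells the 15 members were again at least 2-fold lower, against 3.23% of all genes, with a median of -1.94.

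*Iigp1*, an IRG GTPase, was the most abundant member. It had 6126 UMIs in the gate in AA, 622 in AA+Ab and 44 in Neg, or 53.1, 5.55 and 0.44 CPM. The log2 ratio was -3.26 (interval -3.38 to -3.14), which is 9.58-fold lower in AA+Ab. *Igtp* had 1100 UMIs in AA, 241 in AA+Ab and 154 in Neg, with a log2 ratio of -2.15 (-2.36 to -1.95). *Gbp2*, a guanylate-binding protein, had 1978, 676 and 363 UMIs, with a log2 ratio of -1.51 (-1.64 to -1.38). *Tgtp1* had 82 UMIs in AA and 1 in AA+Ab, so that its ratio has a wide counting interval, from -11.64 to -3.80. In each of these 4 genes AA stood highest. *Iigp1*, *Igtp* and *Gbp2* were lowest in Neg, and *Tgtp1* had 1 UMI there as in AA+Ab. *Tgtp1* and *Tgtp2* are near-identical copies, as are *Ifit3* and *Ifit3b*, and the division of reads within each pair is uncertain.

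**Figure D2:**
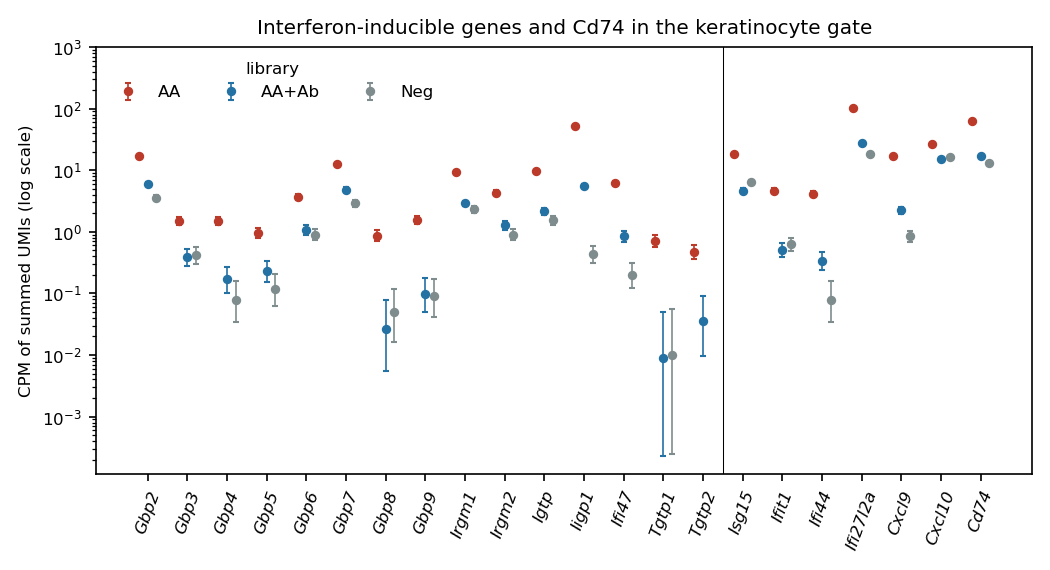
CPM of summed UMIs (log axis) in the keratinocyte gate for 15 GTPases (left of the line) and 7 other genes, in 1 library per group. Bars are exact Poisson 95% intervals for counting error, and a gene with no UMI in a library has no point. AA lies above AA+Ab for every gene shown, from 53.1 against 5.55 CPM for Iigp1 to 26.2 against 15.2 CPM for Cxcl10.

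The type I interferon list behaved alike. In the keratinocyte gate 18 of the 22 members compared were at least 2-fold lower in AA+Ab, against 3.08% of all genes, and none was higher, with a median log2 ratio of -1.81 and a summed level of 274 CPM in AA, 99.4 in AA+Ab and 86.5 in Neg. Over all cells 19 of 23 were at least 2-fold lower, against 3.23%, with a median of -1.36. *Isg15* had 2128 UMIs in AA, 522 in AA+Ab and 637 in Neg, a log2 ratio of -1.99 (-2.13 to -1.85). *Ifit1* had 539, 57 and 63 UMIs, a log2 ratio of -3.20 (-3.62 to -2.81). *Ifi44*, an antiviral gene of unsettled function, had 478, 38 and 8 UMIs, with a log2 ratio of -3.61 (-4.13 to -3.13). The 4 members within 2-fold were *Ifit2*, *Ifih1*, *Cmpk2* and *Parp14*, and their ratios ran from -0.98 to -0.53, all below 0. For *Isg15* and *Ifit1*, AA+Ab lay below Neg.

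*Cxcl9*, an interferon gamma target that attracts T cells through CXCR3, had 1980 UMIs in the gate in AA, 250 in AA+Ab and 85 in Neg, a log2 ratio of -2.95 (-3.14 to -2.75). Over the 12 genes of the interferon gamma list that could be compared, the median was -0.62. Receptor and kinase genes of the pathway stayed within 2-fold. The receptor genes *Ifngr1* and *Ifngr2* had ratios of -0.06 and 0.44, the kinases *Jak1* and *Jak2* had -0.52 and -0.81, and the transcription factor *Irf1* had -0.06. *Cxcl9* UMIs sat in few cells. Over all cells of AA, 155 cells had one, the 10 highest cells held 78.4% of the UMIs, and 1 cell held 529. Without the 10 cells with most *Cxcl9* UMIs in each library the ratio over all cells was -2.22 in place of -3.23.

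**Figure D3:**
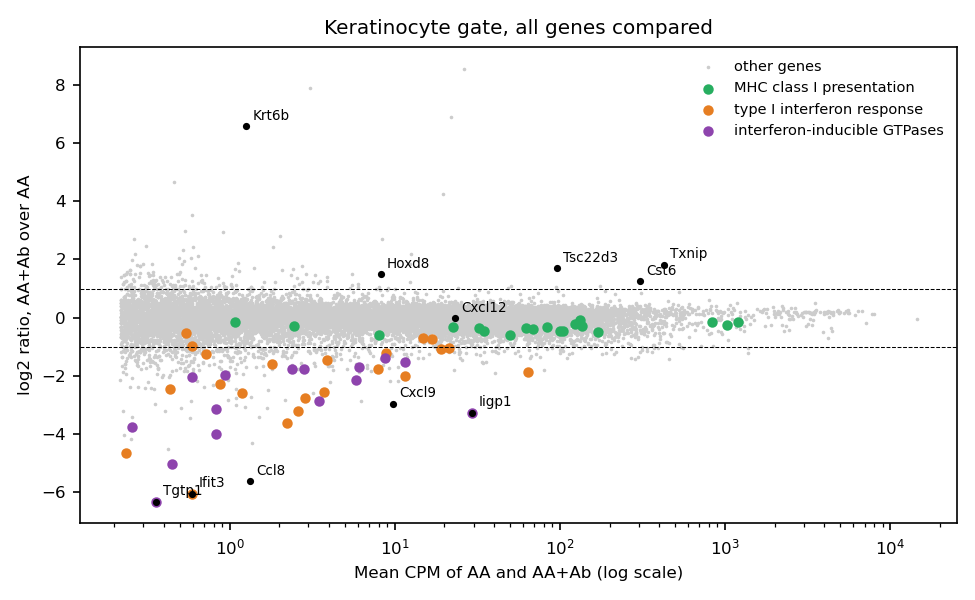
Log2 ratio of AA+Ab over AA against mean CPM (log axis) for the 16032 genes compared in the keratinocyte gate. Dashed lines mark 2-fold. The 15 GTPases and 18 of 22 type I interferon genes lie below the lower line, the 19 genes of MHC class I presentation lie between the lines and below 0, and Cxcl12 lies at -0.01.

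Antigen presentation genes were lower by less. All 19 genes of MHC class I presentation had ratios below 0 in the keratinocyte gate, with a median of -0.33, and none passed 2-fold. Their summed level was 4531 CPM in AA, 3859 in AA+Ab and 3351 in Neg. Of 9 MHC class II genes compared in the gate 5 were at least 2-fold lower, against 3.08% of all genes, and none was higher, against 1.04%, with a median of -1.25. *Cd74*, the invariant chain, had 7364 UMIs in AA, 1911 in AA+Ab and 1340 in Neg, a log2 ratio of -1.91 (-1.98 to -1.83). *Ciita*, the activator of class II genes, had 66, 17 and 9 UMIs. The peptide loading genes *H2-DMa* and *H2-DMb1* had ratios of -0.17 and -0.25.

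Markers of other cells were present in the keratinocyte gate. The 11 genes of the dendritic cell and macrophage list, which include class II genes, summed to 110 CPM in AA, 35.9 in AA+Ab and 30.0 in Neg, and 1 of them was at 0 in AA+Ab. In the gate without the cells that held a T or myeloid marker UMI, 14 of 14 GTPases and 17 of 21 type I interferon genes were still at least 2-fold lower, against 2.66% of all genes there, and 5 of 9 class II genes. The summed GTPases in those cells were 123 CPM in AA and 26.6 in AA+Ab.

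The GTPase UMIs were unevenly spread over cells. After each cell was thinned to 2000 UMIs, 11.1% of cells in the keratinocyte gate had at least 1 GTPase UMI in AA (10.4 to 11.8), 4.48% in AA+Ab (4.02 to 4.98) and 3.09% in Neg (2.63 to 3.60). Without thinning the shares were 31.9%, 18.3% and 17.3%. Cells with at least 5 such UMIs made up 1.57% in AA, 0.14% in AA+Ab and 0.02% in Neg. Thinning left out 35 cells of AA, 34 of AA+Ab and 29 of Neg as too shallow. The 3 intervals of the thinned shares do not overlap, AA+Ab stood between the other libraries, and the cells with many GTPase UMIs were mostly those of AA.

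**Figure D4:**
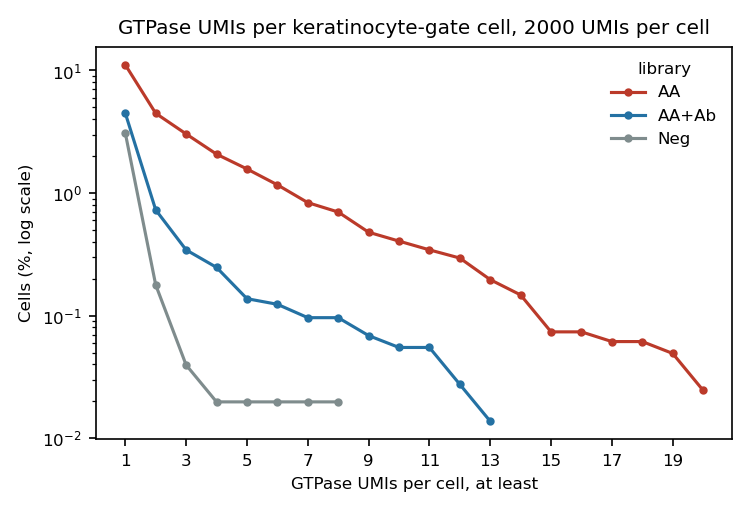
Share of keratinocyte-gate cells (%, log axis) with at least the given number of UMIs from the 16 interferon-inducible GTPases, each cell thinned to 2000 UMIs, in 1 library per group. The curves start at 11.1% in AA, 4.48% in AA+Ab and 3.09% in Neg and part further with the number of UMIs.

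The GTPases were lower in AA+Ab outside the keratinocyte gate too. In *Ptprc*-positive cells 10 of 12 members compared were at least 2-fold lower, against 3.09% of all genes, with a median of -1.49. In the T gate 7 of 9 were lower, against 3.73%, and in the hair-lineage gate 6 of 7, against 1.67%. In cells with few keratin UMIs and no fibroblast markers, the low-keratin gate, it was 7 of 7, against 2.85%. In T cells without a CD8 UMI 3 members could be compared, 0 were at least 2-fold lower, against 3.11% of all genes, and their median was -0.85. *Iigp1* had 253 UMIs in the myeloid gate of AA and 1 in that of AA+Ab, from 111 and 100 cells. Its level in AA ran from 4.10 CPM in hair-lineage cells to 288.5 CPM in the myeloid gate.

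**Figure D5:**
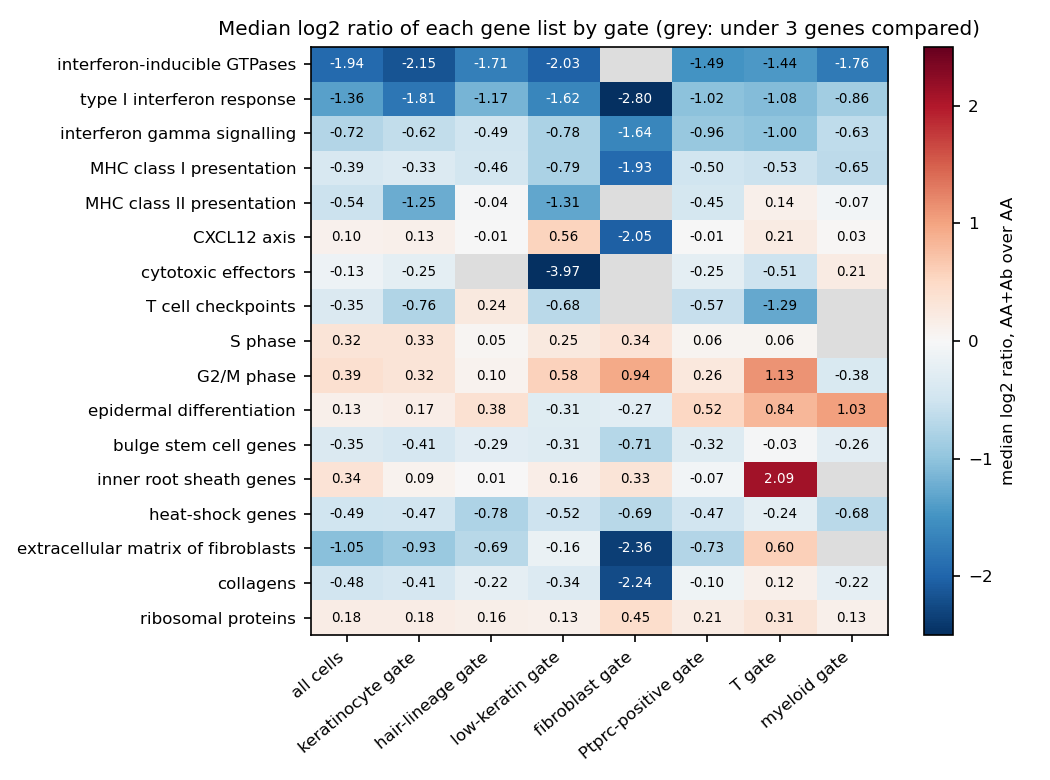
Median log2 ratio of AA+Ab over AA for 17 gene lists in 8 gates, printed in each cell and colored from blue (lower in AA+Ab) to red (higher), with 1 library per group. Lists with under 3 genes compared are grey. The GTPase and type I interferon rows are blue in every gate shown with a value, from -0.86 to -2.80. The row of interferon gamma signalling is nearer to 0 than this range in the keratinocyte gate. The CXCL12 axis is near 0 in all cells, at 0.10.

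Among T cells, *Ifng* and 5 of 12 cytotoxic effector genes were at least 2-fold lower in AA+Ab, against 3.73% of all genes, and 2 of 3 marker genes of gamma-delta T cells at least 2-fold higher, against 3.16%. *Ifng*, the gene of interferon gamma, had 702 UMIs in the T gate in AA, 253 in AA+Ab and 54 in Neg, or 225, 62.4 and 15.9 CPM, a log2 ratio of -1.85 (-2.06 to -1.64). None of the 12 effector genes was 2-fold higher, and their median log2 ratio was -0.51. *Gzmb*, a granzyme, had 392, 91 and 81 UMIs, a log2 ratio of -2.49 (-2.83 to -2.15). *Ccl5*, a chemokine of effector T cells, had 5400, 2117 and 1041 UMIs, a log2 ratio of -1.73 (-1.80 to -1.66). *Prf1*, the pore-forming protein perforin, had 356, 641 and 514 UMIs, a log2 ratio of 0.47 (0.28 to 0.66). For the first 3 of these genes AA stood highest and for *Prf1* lowest.

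Of 7 checkpoint genes compared in the T gate 4 were at least 2-fold lower, against 3.73% of all genes, and none was higher, against 3.16%. *Pdcd1*, the gene of PD-1, had 169 UMIs in AA, 34 in AA+Ab and 25 in Neg, a log2 ratio of -2.69 (-3.27 to -2.15). *Cxcr3*, the receptor of CXCL9, had 87, 35 and 14 UMIs, a log2 ratio of -1.69 (-2.30 to -1.11). *Il13*, a type 2 cytokine, had 99, 30 and 74 UMIs, a log2 ratio of -2.10, with AA+Ab below Neg. *Trdc*, the constant chain of the gamma-delta receptor, had 1178, 3222 and 2775 UMIs, a log2 ratio of 1.07 (0.98 to 1.17). *Tcrg-C1*, of the gamma chain, had 215, 626 and 580 UMIs, and both genes were lowest in AA.

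Within the CD8 gate the levels per UMI were closer. *Ifng* stood at 438 CPM in the 206 CD8 cells of AA and at 389 CPM in the 66 of AA+Ab, a log2 ratio of -0.17 (-0.41 to 0.06). *Ccl4* and *Nkg7*, of cytotoxic cells, had ratios of -0.16 and 0.05. *Gzmb* and *Pdcd1* were 2-fold lower there as well, at -1.91 (-2.47 to -1.39) and -1.35 (-2.07 to -0.70), against 5.94% of the 5422 genes compared in this gate. *Isg15* had 147 UMIs there in AA and 3 in AA+Ab. The gate held dendritic cell and macrophage genes, summed to 671 CPM in AA and 66.9 CPM in AA+Ab. The inner root sheath genes *Krt71*, *Krt25* and *Krt28* were among its 15 named genes with the highest lower bound of the ratio. The part of both groups of genes in these values was not tested. In T gate cells without a CD8 UMI, *Ifng* and *Ccl4* were among the 15 named genes with the lowest upper bound of the ratio. *Nkg7* was not among them. In the whole T gate skeletal muscle genes summed to 74.7 CPM in AA and 436 in AA+Ab, and 13 of 20 G2/M genes were at least 2-fold higher, against 3.16% of all genes, with a median of 1.13. Their part in the T gate values was not tested.

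The target of the antibody and its receptors did not pass 2-fold over all cells. *Cxcl12* had 3305 UMIs in AA, 3259 in AA+Ab and 1994 in Neg, or 24.4, 23.3 and 16.7 CPM, a log2 ratio of -0.06 (-0.13 to 0.01). *Cxcr4* had 374, 480 and 294 UMIs, a log2 ratio of 0.32 (0.12 to 0.52). *Ackr3* had 8979, 9652 and 7827 UMIs, a log2 ratio of 0.06 (0.02 to 0.10). In the T gate *Cxcr4* stood at 54.9, 50.8 and 44.9 CPM, a log2 ratio of -0.11 (-0.41 to 0.19). These are mRNA levels, and protein bound by the antibody was not measured. In the fibroblast gate, described below, *Cxcl12* was lower in AA+Ab, at 230 CPM in AA, 53.3 in AA+Ab and 54.1 in Neg.

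Genes outside the interferon lists were lower in keratinocytes as well. *Kcnd3*, a potassium channel gene, had 320 UMIs in the gate in AA, 29 in AA+Ab and 53 in Neg, a log2 ratio of -3.42 (-4.03 to -2.87). *Il15ra*, the receptor chain that presents interleukin 15, had 5038, 2073 and 2340 UMIs, a log2 ratio of -1.24 (-1.32 to -1.17). The cytokine gene *Il15* had a ratio of 0.19.

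*Txnip* and *Tsc22d3* were more than 2-fold higher in AA+Ab in the keratinocyte gate. *Txnip*, whose protein binds thioredoxin and limits glucose uptake, had 21626 UMIs in AA, 74420 in AA+Ab and 61472 in Neg, or 188, 664 and 609 CPM, a log2 ratio of 1.82 (1.80 to 1.85). *Tsc22d3*, a target of glucocorticoids also known as GILZ, had 5236, 16439 and 8779 UMIs, a log2 ratio of 1.69 (1.65 to 1.74). Over all cells 57.9% of AA cells had a *Txnip* UMI and 78.7% of AA+Ab cells, at near equal median depth. For both genes AA stood lowest. In the hair-lineage gate their ratios were smaller, at 0.72 and 0.89.

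Of the 4 upper hair follicle genes 2 were at least 2-fold higher in the gate, against 1.04% of all genes. *Cst6*, a protease inhibitor of the follicle opening, had 20846 UMIs in AA, 48619 in AA+Ab and 26748 in Neg, a log2 ratio of 1.26 (1.24 to 1.29). *Defb6*, a defensin, had 12870, 26843 and 14718 UMIs, a log2 ratio of 1.10 (1.07 to 1.13). Here AA+Ab stood above both other libraries. *Cdsn*, of the cornified layer, had 144, 476 and 509 UMIs, a log2 ratio of 1.77 (1.49 to 2.04). Of 15 epidermal differentiation genes 2, *Flg2* and *Cnfn*, passed 2-fold, and the median was 0.17. *Hoxd8*, a homeobox gene, had 494, 1359 and 446 UMIs, a CPM ratio of 2.83 (2.55 to 3.14), and without hair-lineage cells its log2 ratio was 0.81.

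Cycling genes were slightly higher in AA+Ab. All 20 genes of the G2/M list and all 20 of the S phase list had ratios above 0 over all cells, with medians of 0.39 and 0.32, and none passed 2-fold. Their sums were 1370 and 753 CPM in AA, 1778 and 948 in AA+Ab, and 1706 and 948 in Neg. Within the hair-lineage gate the medians were 0.10 and 0.05. The 10 hair shaft keratins compared had a median of 0.91 over all cells, and 4 were at least 2-fold higher, against 1.65% of all genes. *Krt31* had 23 UMIs in AA, 284 in AA+Ab and 167 in Neg, but 94.4% of those in AA+Ab sat in 10 cells and 125 in 1 cell, and without the 10 highest cells of each library its ratio was 0.50 in place of 3.58. *Krt35*, the most abundant, had a ratio of 0.52. *Krt6b* had 6 UMIs in AA and 283 in AA+Ab, of which 185 came from 1 cell.

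Of the 13 bulge stem cell genes 12 had ratios below 0 over all cells, with a median of -0.35, and 2 were at least 2-fold lower, against 3.23% of all genes. *Lgr5*, a marker of follicle stem cells, had 7412 UMIs in AA, 3657 in AA+Ab and 4846 in Neg, a log2 ratio of -1.06. *Cd34* had 1202, 505 and 705 UMIs, a log2 ratio of -1.29 (-1.45 to -1.14). In each, AA+Ab lay below both other libraries. *Krt15* had a ratio of -0.12.

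Among leukocytes, genes of neutrophils and of C1q macrophages differed in opposite directions. Of 6 monocyte and neutrophil genes 4 were at least 2-fold higher over all cells, against 1.65% of all genes, and the list summed to 28.9 CPM in AA (28.0 to 29.9), 168 in AA+Ab (166 to 170) and 95.5 in Neg (93.8 to 97.3). *S100a9*, a neutrophil alarmin, had 1533 UMIs in AA, 13530 in AA+Ab and 6325 in Neg, a CPM ratio of 8.57 (8.13 to 9.04), with no log taken. It was found in 79 cells of AA and 376 of AA+Ab, counted over all gates. In the keratinocyte gate 2.53% of AA cells and 6.38% of AA+Ab cells had a UMI of the list. With cells thinned to 2000 UMIs the list averaged 0.013 and 0.015 UMIs per cell there. In *Ptprc*-positive cells the list averaged 2.64 and 20.7. *Retnlg*, of neutrophil granules, had 122, 1386 and 448 UMIs, a log2 ratio of 3.46 (3.20 to 3.74), and was found in 9 cells of AA and 103 of AA+Ab. *Cxcl2*, a neutrophil chemokine, had 1256, 6875 and 2129 UMIs, a log2 ratio of 2.41. AA stood lowest in all 3 genes.

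The erythrocyte genes, which mark blood that remained after lysis of red cells, were also lowest in AA. *Hbb-bs* had 58 UMIs in AA, 8142 in AA+Ab and 7224 in Neg, or 0.43, 58.3 and 60.6 CPM, so that AA+Ab was not above Neg, and in AA+Ab 4782 of the UMIs sat in 1 cell. All 4 erythrocyte genes were at least 2-fold higher in AA+Ab than in AA, against 1.65% of all genes, from a log2 ratio of 3.37 to 7.39, and their part in the neutrophil values was not tested. Genes of mast cells were also lowest in AA. *Cma1*, a chymase, had 45 UMIs in AA, 251 in AA+Ab and 267 in Neg, a log2 ratio of 2.44 (1.97 to 2.93), and all 4 mast cell genes compared were at least 2-fold higher than in AA, against the same 1.65%.

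*C1qa*, a complement gene of resident macrophages, had 526 UMIs in AA, 62 in AA+Ab and 206 in Neg, a log2 ratio of -3.13 (-3.53 to -2.75). *C1qb* had 310, 14 and 94 UMIs. These UMIs came from 43, 30 and 20 cells for *C1qa*, and 90.5% of those in AA sat in 10 cells. *Ccl8*, a monocyte chemokine, had 733, 22 and 66 UMIs, a log2 ratio of -5.10 (-5.78 to -4.49). In the myeloid gate it had 317 UMIs in AA and 2 in AA+Ab. The shares of cells in that gate were 1.06% in AA (0.876 to 1.28) and 1.02% in AA+Ab (0.828 to 1.24), and its counting intervals overlap. The class II list there had 1 of 10 genes at least 2-fold lower, against 5.49% of all genes, with a median of -0.07. Cells enter this gate partly through UMIs of *H2-Aa*, *H2-Ab1*, *H2-Eb1* and *Cd74*. The class II values there therefore cannot show whether class II levels of myeloid cells differed.

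Fibroblast genes were lower in AA+Ab. Of 6 dermal fibroblast genes 5 were at least 2-fold lower over all cells, against 3.23% of all genes, with a median of -1.37. *Col1a2*, a chain of type I collagen, had 6471 UMIs in AA, 1920 in AA+Ab and 1999 in Neg, a log2 ratio of -1.80 (-1.87 to -1.72). *Dcn*, decorin, was the exception at 0.20 (0.18 to 0.21). The fibroblast gate, cells with at least 10 UMIs of 4 fibroblast genes and few keratin UMIs, held 192 cells in AA and 194 in AA+Ab, 1.84% and 1.97% of cells. Their median depth differed, at 8006 and 16548 UMIs, and in Neg it was 16828. All 13 matrix genes compared in the gate were at least 2-fold lower, against 15.3% of all genes there, with a median of -2.36. In the same gate 9 of 20 G2/M genes were at least 2-fold higher, against 2.18%, and *Corin*, a marker of dermal papilla cells, had 123 UMIs in AA, 412 in AA+Ab and 21 in Neg. The part of this makeup and depth in the values of matrix genes was not tested. In the keratinocyte gate 8 of 32 collagens were at least 2-fold lower, against 3.08% of all genes, and 1 was higher, against 1.04%, with a median of -0.41.

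The CPM of each AA+Ab gate was also weighted by the UMI share of that gate in AA. Over all cells 15 of 15 GTPases and 18 of 23 type I interferon genes were then at least 2-fold lower. Before weighting the counts were 15 of 15 and 19 of 23, against 3.23% of all genes. The share of all genes after weighting is not reported here, so the weighted counts stand without a background. *Iigp1* stood at 5.74 CPM in place of 5.19, against 52.5 CPM in AA. *Pmel*, a melanocyte gene with 7290 UMIs in AA and 15718 in AA+Ab, had a log2 ratio of 1.07 before and 0.98 after weighting. None of the weighted gates was a melanocyte gate, so the weighting does not adjust for the share of melanocytes.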

How the data were processed

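Skin cells were profiled with 10x 3′ v3.1 libraries after collagenase digestion, red cell lysis and a Percoll gradient. The authors made the deposited counts, raw UMI counts per gene and barcode, with Cell Ranger 7.2.0 on mm10, per the labels. Barcodes outside the limits used here for mitochondrial UMIs and genes were still in the files. The annotation release is not given in the sources used here. The gene table of the files holds 32285 genes, and coordinates come from a GRCm38 annotation, the same build. The study's paper does not describe the AA+Ab library, so the gates were made here.

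Cells were kept at no more than 10% mitochondrial UMIs and at least 200 genes. No doublet caller was run, and the alternative without the 5% of barcodes with most UMIs bears on doublets. Gates used raw UMIs: *Ptprc* at least 1; *Krt5* plus *Krt14* at least 10; 4 fibroblast genes at least 10; 6 T cell genes at least 2; *Cd8a* plus *Cd8b1* at least 1; 6 myeloid genes at least 5; hair genes at least 10. UMI sums per library and gate were scaled to CPM by the total of that gate. Intervals were exact Poisson for CPM, exact conditional for ratios and Clopper-Pearson for shares, at 95%, and cover counting error only, since groups have 1 library each. Genes with at least 50 UMIs over both libraries were compared and called at 2-fold. The calculation recovered known folds in simulated data. The simulated counts were Poisson, as the intervals assume, so the recovery does not cover the clustering of UMIs in cells.

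Named genes were the 15 with the highest lower bound and the 15 with the lowest upper bound of the ratio in each comparison, without unnamed models, mitochondrial, hemoglobin and receptor segment genes, and the members of the lists. The report names a part of them, and some results are not reported here. The members, lists and gates were chosen with earlier results of these data known. Alternatives changed the cell filters, the gate, the denominator, the scaling (median of ratios, and TMM in edgeR 4.0.16), the UMI minimum, the fold, the mean over cells and the depth. Python 3.11.15, numpy 2.4.6, pandas 2.3.3, scipy 1.17.1, matplotlib 3.10.9 and R 4.3.3 were used.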

Additional observations from a re-analysis of the deposited data

How the results depend on the processing

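The alternatives include a fold of 1.5, so the upper ends of the ranges given next need not be 2-fold counts. Over all alternatives the number of GTPases called lower ran from 12 to 15 over all cells, where it was 15. In the keratinocyte gate, where it was 15, it ran from 8 to 16. For the type I interferon list it ran from 11 to 22 over all cells, where it was 19, and from 11 to 21 in the gate, where it was 18. Thinning each cell to 2000 UMIs left fewer genes to compare. It gave 8 of 8 GTPases, 11 of 14 type I interferon genes and 3 of 19 collagens lower in the keratinocyte gate. Of all 12012 genes compared there, 207 were lower and 62 higher. Over all cells 11 of 17 type I interferon genes were lower, against 331 of all 13508 genes. There 2 of 2 mast cell genes and 0 of 3 hair shaft keratins were higher, and the count of all genes higher is not reported here. A minimum of 200 UMIs gave 9 of 9 GTPases and 5 of 24 collagens lower in the gate. Of all 13171 genes compared there, 284 were lower and 61 higher. Over all cells it gave 2 of 2 mast cell genes higher, and of all 14326 genes 129 were higher and 358 lower. A minimum of 20 UMIs gave 503 of 19463 genes higher over all cells, and 364 higher and 755 lower of 18182 in the gate. With no minimum beyond 1 UMI the counts higher and lower were 2283 and 2974 of 26076 over all cells. In the gate they were 2461 and 2807 of 25132. A fold of 1.5 gave 886 and 1573 of 17355 over all cells and 604 and 1410 of 16032 in the gate. With the whole counting interval past 2-fold the counts were 122 and 271 of 17355 over all cells, with 2 of 10 hair shaft keratins higher. In the gate they were 52 and 236 of 16032, with 5 of 32 collagens lower. The mean over cells of per-cell CPM gave 487 of 17355 genes higher over all cells. The 4 hair shaft keratins higher became 2 with at least 1000 genes per barcode, 2 with gates weighted to AA, and 2 without the 10 cells with most UMIs of each gene, an alternative chosen after seeing the data. The share of hair-lineage cells in AA+Ab over AA was 1.37, and 1.48 without the 5% of barcodes with most UMIs. That of the low-keratin gate was 1.26, and 1.41 at 5% mitochondrial UMIs. The cause of these shifts was not tested. In the keratinocyte gate *Ifitm6* turned from 1.66 to -0.40 without the 5% of barcodes with most UMIs and to -0.66 without cells with immune marker UMIs. Median-of-ratios and TMM scaling, and leaving out barcodes found in more than 1 library (also chosen after seeing the data), kept all 60 calls of the named genes. These alternatives could hardly change a call. The 60 genes were picked as the most extreme in the same data, and few barcodes were shared. TMM shifted the log2 ratios by 0.003 over all cells and 0.008 in the gate. Other alternatives lost calls. Thinning kept 47 of 49 and the mean over cells 59 of 60. Leaving out the 5% of barcodes with most UMIs kept 58 of 60, and the 10 cells with most UMIs of each gene 38 of 40. In the keratinocyte gate 26 of 28 were kept without cells with immune marker UMIs and 29 of 30 without hair-lineage cells. Where 49, 40 or 28 genes are counted, the other named genes had no UMI left in at least 1 library, so no ratio. Their calls count neither as kept nor as lost, and they rested on few UMIs or few cells. No paired analysis was possible because each group is 1 library, and no library could be left out.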

Other observations

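Of the 1573 genes with at least 200 CPM in AA and AA+Ab together in the keratinocyte gate, 29 were at least 2-fold lower and 3 higher, and the median log2 ratio was 0.02. The genes named here were chosen after their values were seen. *Serpinb2*, a protease inhibitor induced in stressed and wounded epidermis, had 214552 UMIs in AA, 101867 in AA+Ab and 98070 in Neg, a log2 ratio of -1.03. *Fosl1*, an AP-1 transcription factor, had 77399, 28114 and 27913 UMIs, a log2 ratio of -1.42. *Thbs1*, thrombospondin 1, had 57538, 24813 and 30419 UMIs, a log2 ratio of -1.17. In each of these 3 genes AA stood highest.

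Of the 12 heat-shock genes 2 were at least 2-fold lower over all cells, against 3.23% of all genes, with a median log2 ratio of -0.49. Of the 16 immediate-early genes 1 was at least 2-fold lower, with a median of -0.22. That gene, *Nr4a1*, a nuclear receptor, had 62955 UMIs over all cells in AA, 30743 in AA+Ab and 40419 in Neg, a log2 ratio of -1.08. *Hspa1a*, a heat-shock gene that also responds to tissue digestion, had 72219, 35960 and 72354 UMIs, a log2 ratio of -1.05, so that AA+Ab stood apart from both other libraries. Whether these levels were set in the mice or during dissociation cannot be told apart here.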
